A study of Mus musculus with 4 samples.

Results

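The HGF and EGF family receptor system of mouse liver was followed through 8 genes, which were chosen by name among the 32285 mouse genes of the count matrices. They comprise the ligands Hgf and Nrg1, the HGF-activating protease gene Hgfac, the receptors Met, Egfr, Erbb2 and Erbb3, and Ctnnb1, which encodes β-catenin. For each gene the level was measured as counts per 1000000 (CPM) of the summed unique molecular identifiers (UMIs, 1 per captured RNA molecule) of all nuclei of a class in a library, and as the share of nuclei with at least 1 UMI. The material was single-nucleus RNA-seq of liver from male Bl/6 mice, which by the study's methods were 6 to 8 weeks old at the start, in 4 libraries, 1 for each group as labelled. How many animals made up a library is not given in the sources used here. There was a control and an oncogene library on each of 2 diets, where CD is chow and LPD is a low-protein diet. Values of the 4 libraries are given throughout in the order CD control, CD oncogene, then LPD control, LPD oncogene. In all 4 groups the diet began 1 week before plasmids were delivered through the tail vein under hydrodynamic pressure and was kept for 2 weeks after it. The oncogene groups received human c-MET and ΔN90-β-catenin, a form of β-catenin that lacks its N-terminal part, on Sleeping Beauty transposons driven by the EF1α promoter, which insert mainly into hepatocytes. The control groups received a vector without them. The human transgenes were counted as 2 features of their own, so Met and Ctnnb1 below are the endogenous mouse genes.

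HGF is secreted as an inactive precursor by mesenchymal cells, is cut into its active form by serine proteases such as the product of Hgfac, and signals through MET, its only known receptor. EGFR, ERBB2 and ERBB3 belong to the EGF receptor family, which works in pairs. EGFR binds EGF-type ligands, ERBB3 binds neuregulins such as NRG1 but has little kinase activity, and ERBB2 has no known ligand and acts as a partner for the others. In liver, MET and EGFR are the best known growth receptors of hepatocytes, and β-catenin acts both at cell junctions and as the transcriptional arm of Wnt signaling, which patterns the lobule from the portal to the central vein.

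The libraries held 9826 to 13014 nucleus barcodes, and pairs of libraries shared 18 to 40 barcodes. After filtering, 42877 nuclei were kept and 38534 of them passed a marker gate for 1 of 11 classes, which are named below after the cell type of their markers. The class with the most nuclei was hepatocyte, with 6661 to 9537 nuclei per library, and the gate used none of the 8 genes. Depth and mitochondrial share separated the diets: hepatocyte nuclei had a median of 4593 and 3741 UMIs in the CD libraries and of 2253 and 2283 in the LPD libraries, so diet and depth cannot be told apart. The labels of the CD libraries went against the transgene counts. The library labelled CD control held 100 human transgene UMIs and the library labelled CD oncogene held 0, against 0 in the library labelled LPD control and 6 in the library labelled LPD oncogene. The libraries were kept under their labels, and any direction between the CD libraries would turn if these labels were exchanged. With 1 library per group no difference between groups has a replicate check. The 95% intervals given here are exact Poisson, binomial or conditional binomial ones that cover counting error only.

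Hepatocyte RNA was found in the nuclei of every class, which sets how far a level outside hepatocytes can be read. In sinusoidal endothelial nuclei the summed CPM of 14 hepatocyte markers (Alb, Apob and others) was 0.530 to 0.824 of that in hepatocyte nuclei of the same library, and in stellate nuclei 0.495 to 0.655. A gene was therefore called above this background in a class only where the whole interval of its class-to-hepatocyte ratio lay above the highest ratio of any of the 14 markers in the same class and library. Over 12325 genes and 29 class-library pairs with at least 30 nuclei, 22.3% of levels passed this rule, and among the 8 genes 43 of 232 did.

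The start sites of 3 genes are shown because they stand for the classes in which the genes were found: Hgf in stellate nuclei, and Hgfac and Egfr in hepatocyte nuclei. The windows are the 250 bases before the RefSeq start (build GRCm38.p6), 5′ to 3′ on the strand of the gene, which is plus for all 3. Capitals mark matches on either strand to 5 short motifs. These were the TATA box, spelled TATAAA, the core shared by HNF1 sites, spelled GTTAAT, and the nuclear receptor core, spelled AGGTCA. The other two were the core shared by HNF4 sites, spelled CAAAGT, and the GC box, spelled GGGCGG. The motifs do not overlap in these windows.
Hgf, chr5:16553245-16553494: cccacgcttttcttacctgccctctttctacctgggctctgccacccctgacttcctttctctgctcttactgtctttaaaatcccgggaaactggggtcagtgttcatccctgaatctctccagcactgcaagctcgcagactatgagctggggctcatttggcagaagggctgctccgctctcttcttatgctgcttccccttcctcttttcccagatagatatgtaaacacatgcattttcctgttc
Hgfac, chr5:35041259-35041508: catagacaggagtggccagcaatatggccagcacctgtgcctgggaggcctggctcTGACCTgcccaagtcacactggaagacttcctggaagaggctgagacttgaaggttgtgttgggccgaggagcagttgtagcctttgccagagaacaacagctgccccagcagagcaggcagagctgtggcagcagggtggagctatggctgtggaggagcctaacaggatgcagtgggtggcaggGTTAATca
Egfr, chr11:16751953-16752202: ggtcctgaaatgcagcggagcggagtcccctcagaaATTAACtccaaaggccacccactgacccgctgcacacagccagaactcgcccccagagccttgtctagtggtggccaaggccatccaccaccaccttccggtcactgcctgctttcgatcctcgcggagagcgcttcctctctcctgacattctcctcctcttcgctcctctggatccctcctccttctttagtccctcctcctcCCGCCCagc

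The Hgf window held none of the 5 motifs, although a second RefSeq start of Hgf has GTTAAT 94 bases before it. The Hgfac window held GTTAAT 8 bases and AGGTCA (as TGACCT) 194 bases before the start, and the Egfr window held GTTAAT (as ATTAAC) 214 bases and GGGCGG (as CCGCCC) 9 bases before it. Among 32851 RefSeq promoters of the same length, 12.4% held TATAAA, 6.43% GTTAAT, 14.02% AGGTCA, 12.6% CAAAGT and 32.7% GGGCGG. A match is a description of the letters, not a binding site. RefSeq entries were used for 6 of the 8 genes, and Erbb3 and Nrg1 are named only.

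Hgf (ENSMUSG00000028864, chr5:16553495-16620152, plus strand, build GRCm38) was highest in stellate nuclei, from the vitamin A-storing mesenchymal cells of the sinusoid. In stellate nuclei its level was 993 CPM in the library labelled CD control, 734 CPM in CD oncogene, 1322 CPM in LPD control and 1886 CPM in LPD oncogene. In hepatocyte nuclei of the same libraries it was 2.94, 4.27, 1.49 and 2.68 CPM. The level in stellate nuclei was thus 5.74 to 6.61 higher on the log2(CPM + 5) scale than in all other gated nuclei of the same library. Hgf was the only 1 of 7 genes tested that was raised at least 2-fold in stellate nuclei in every library, where 8.84% of all genes tested were. Of the 7, 0 were raised in sinusoidal endothelial, Kupffer, cholangiocyte, T or NK, B and plasmacytoid dendritic nuclei, where the backgrounds were 6.92%, 8.95%, 4.26%, 7.39%, 5.64% and 10.1%. At least 1 Hgf UMI was seen in 76.7%, 68.5%, 77.7% and 75.2% of stellate nuclei (median 1133 to 1908 UMIs), and in 1.60%, 2.15%, 0.393% and 0.736% of the deeper hepatocyte nuclei. At an equal depth of 1000 UMIs per nucleus, which left out shallower nuclei and kept 260, 346, 199 and 92 stellate nuclei, the shares were 65%, 52.0%, 69.8% and 71.7% in stellate nuclei and 0.415%, 0.557%, 0.0842% and 0.273% in hepatocyte nuclei. The stellate share was lowest in CD oncogene, as the level was.

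Sinusoidal endothelial nuclei, from the fenestrated cells that line the liver capillaries, held the next level of Hgf. It was 97.8 CPM in CD control, 39.2 CPM in CD oncogene, 186 CPM in LPD control and 432 CPM in LPD oncogene. These levels lay above the hepatocyte marker range in 4 of 4 libraries, and so did those of Kupffer nuclei (resident macrophages), with 48.6, 24.0, 45.5 and 43.3 CPM. Stellate RNA was also present in these classes, and its measure is the sum of the 12 stellate markers. In sinusoidal nuclei that sum was 2.44%, 2.62%, 1.30% and 0.853% of its level in stellate nuclei, whereas Hgf stood at 9.85%, 5.35%, 14.1% and 22.9% of its stellate level. Hgf in sinusoidal nuclei was thus above the share that the stellate markers had there in each library, and least so in the library labelled CD oncogene. In Kupffer nuclei the stellate markers stood at 1.81%, 0.445%, 0.862% and 0.724% and Hgf at 4.90%, 3.28%, 3.44% and 2.30%. The gate used the stellate markers and left out nuclei with many of them, but it did not use Hgf. The marker shares in both classes are therefore held down by the gate, and how much of the Hgf there was stellate RNA was not tested. Vascular endothelial and plasmacytoid dendritic nuclei had 0 Hgf UMIs in each library with at least 30 of them. Because sinusoidal nuclei were many, they carried 17.1%, 5.58%, 15.9% and 48.5% of all Hgf UMIs of the kept nuclei, next to 62.0%, 62.6%, 70.0% and 35.8% in stellate nuclei. In LPD oncogene, with 993 sinusoidal and 145 stellate nuclei, the order of these classes was turned.

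Between libraries, Hgf in stellate and in sinusoidal nuclei was higher in both LPD libraries than in both CD libraries. In stellate nuclei the 4 LPD over CD pairs gave log2 ratios of CPM of 0.41, 0.85, 0.93 and 1.36. The background of this pattern is wide, since 32.6% of stellate genes and 41.9% of sinusoidal genes tested were higher in LPD in all 4 pairs. The summed stellate markers, which the gate used, moved the same way, by 0.47, 0.85, 0.59 and 0.97. Under a stricter gate, with 23, 20, 28 and 14 stellate nuclei in the libraries, Hgf stood at 847, 461, 857 and 1742 CPM. LPD control and CD control were thus nearly level there. In sinusoidal nuclei the log2 ratios of Hgf were 0.93, 2.25, 2.14 and 3.46 and those of the summed sinusoidal markers 0.83, 1.87, 1.12 and 2.16. Between the labels on LPD, sinusoidal Hgf was 1.21 higher on the log2 scale in oncogene than in control (95% interval 0.94 to 1.49) with the sinusoidal markers at 0.29. On CD the same ratio was -1.32 (interval -1.73 to -0.92) with the markers at -1.04. The part of these marker levels and of depth in the Hgf values was not tested.

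**Figure D1:**
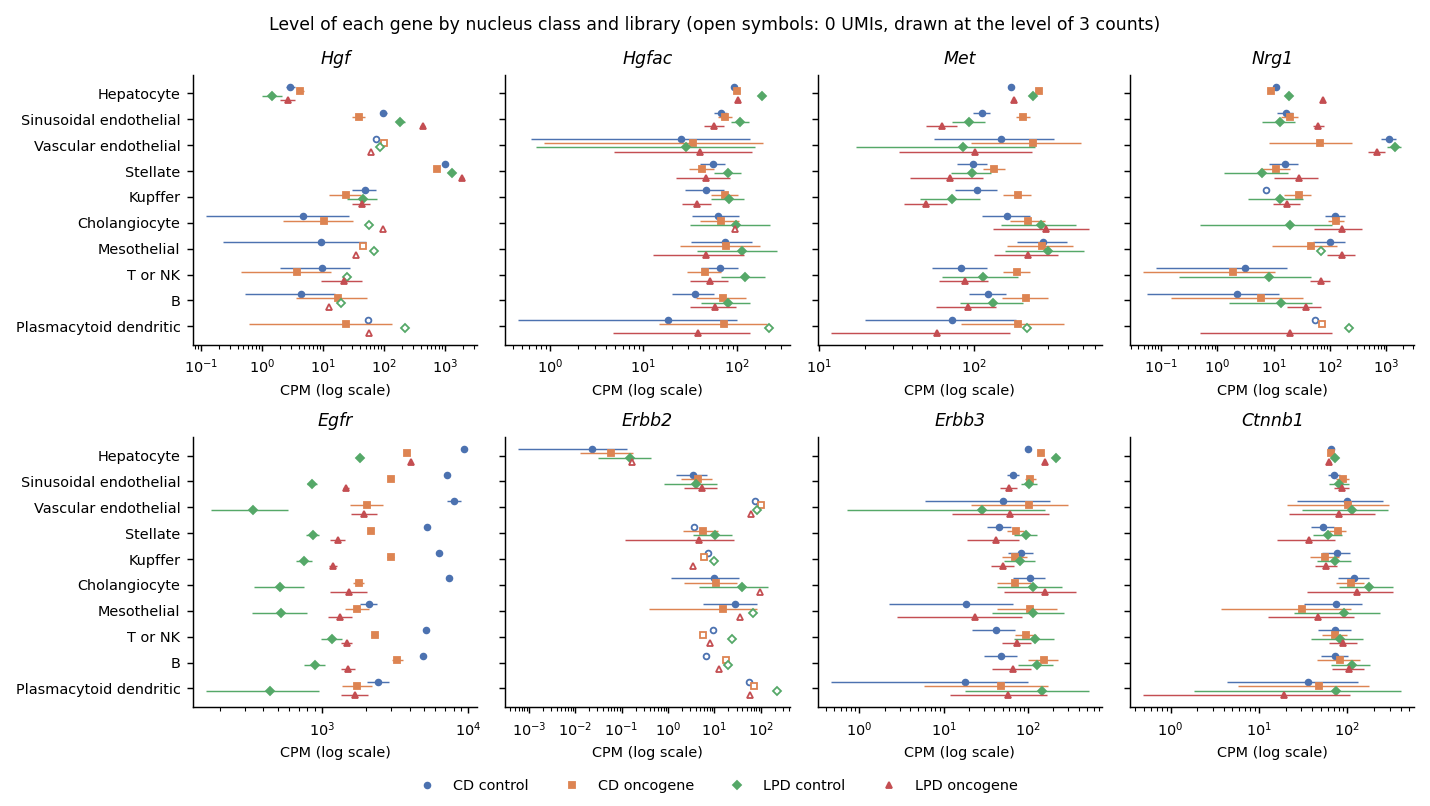
Levels of the 8 genes in 10 nucleus classes of the 4 libraries, as CPM on a log axis that differs between panels. Points are 1 library each with the exact Poisson 95% interval, and open symbols mark 0 UMIs and stand at the level of 3 counts. Hgf peaks in stellate nuclei at 734 to 1886 CPM and Nrg1 in vascular endothelial nuclei, whereas Hgfac, Met, Egfr and Erbb3 stay at or below 1.61 times their hepatocyte level in every class with at least 30 nuclei.

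Nrg1 (ENSMUSG00000062991, chr8:31814551-32884029, minus strand) encodes neuregulin 1, a ligand of ERBB3 and ERBB4. Its highest levels were in vascular endothelial nuclei, from the cells that line the larger vessels. There it reached 1413 CPM (interval 1049 to 1863) in LPD control and 688 CPM (476 to 961) in LPD oncogene, the libraries with at least 30 such nuclei. In the CD libraries, with 14 and 18 vascular endothelial nuclei, it was 1122 CPM and 67.9 CPM, the second from 2 UMIs. Nrg1 was raised at least 2-fold in vascular endothelial nuclei in both of these libraries, by 5.96 and 3.17 on the log2 scale, where 9.16% of all genes tested were raised. It was also raised in mesothelial nuclei, the lining of the liver surface, with 102 CPM in CD control and 163 CPM in LPD oncogene, against a background of 8.83%. Mesothelial nuclei held 28 Nrg1 UMIs over all libraries. At most 11.8% of them in a library had a UMI, and the lowest library level, with fewer than 30 nuclei, was 0 CPM. Cholangiocyte nuclei, from the bile ducts, held 125, 131, 19.4 and 161 CPM, the last 2 from 1 and 5 UMIs. Nrg1 lay above the hepatocyte marker range in 9 of 29 class-library pairs, 2 of them vascular endothelial, 2 sinusoidal endothelial and 2 cholangiocyte. Over all genes 22.3% of levels did.

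In hepatocyte nuclei Nrg1 was low in 3 libraries and higher in the fourth. It stood at 10.8 CPM in CD control, 8.88 CPM in CD oncogene, 18.5 CPM in LPD control and 75.8 CPM in LPD oncogene. The difference between the labels on LPD was 1.78 on the log2(CPM + 5) scale, past 2-fold, where 1.56% of 6839 hepatocyte genes tested were at least 2-fold higher. On CD it was -0.19 and the gene did not pass the filter on low values. Nuclei with a UMI made up 4.11%, 3.41%, 3.69% and 10.5% of hepatocyte nuclei, and 0.887%, 1.01%, 1.85% and 5.56% after thinning to 1000 UMIs, which kept 6223 to 8795 nuclei a library. At equal depth the LPD libraries were thus both above the CD libraries, which the shares at full depth did not show. The higher level in LPD oncogene thus showed in more nuclei with a UMI, and also in few nuclei with several UMIs. Hepatocyte nuclei with at least 3 Nrg1 UMIs numbered 26, 23, 20 and 134, which is 0.341%, 0.241%, 0.262% and 2.01% of each library. In LPD oncogene these 134 nuclei held 51.2% of the Nrg1 UMIs of the class, against 19.9% to 23.9% in the other libraries, and 1 nucleus had 22.

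Markers of other classes were also summed in hepatocyte nuclei. The gate allowed at most 1 marker of any other class in a hepatocyte nucleus, which holds these sums down but not Nrg1. They therefore cannot show how much Nrg1 came with RNA of other classes. The 12 vascular endothelial markers summed to 5.56, 7.51, 6.15 and 7.61 CPM in hepatocyte nuclei of the 4 libraries, against 4210 to 8940 CPM in vascular endothelial nuclei, and the mesothelial markers to 1.73, 2.82, 1.14 and 1.70 CPM. Cholangiocyte markers summed to 17.2, 27.0, 20.9 and 26.6 CPM. Kupffer markers, at 8.31, 10.10, 14.8 and 29.5 CPM, and the 12 stellate markers were highest in the same library as Nrg1. The stellate sum stood at 49.2, 32.1, 42.8 and 92.0 CPM, but 35.2, 18.9, 25.7 and 80.9 CPM of these sums were Reln alone, while Lrat, the defining enzyme of stellate retinoid storage, stood at 0.584, 0.701, 0.595 and 0.274 CPM. Stellate nuclei themselves held 15.7, 11.2, 6.30 and 27.8 CPM of Nrg1, and Kupffer nuclei 0, 28.1, 13.01 and 17.6 CPM. The part of these markers in the Nrg1 level was not tested.

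Nrg1 was the only 1 of 6 genes tested that met the rule for a diet difference in hepatocyte nuclei, which asks for at least 0.5 on the log2 scale in the same direction in all 4 LPD over CD pairs. Its 4 log2 differences were 0.57, 0.76, 2.35 and 2.54, against a background of 12.2% of 7237 genes higher and 3.99% lower. The median gene moved by 0.20 in the same direction. With trimmed mean (TMM) scaling, under which the median gene moved by 0.03, the 884 genes called higher and 289 called lower became 555 and 454, the smallest difference of Nrg1 was 0.49 and its call was lost.

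Along the lobule, Nrg1 was lowest in pericentral nuclei. Hepatocyte nuclei of each library were ranked on 12 pericentral and 10 periportal markers, among which are none of the 8 genes, and divided into 3 equal groups. The groups rest on marker RNA, and position in the tissue was not measured. From the periportal to the pericentral group Nrg1 went from 19.3 to 4.42 CPM in CD control, from 10.4 to 4.41 in CD oncogene, from 23.2 to 8.91 in LPD control and from 88.7 to 20.8 in LPD oncogene. The log2 differences ran from -1.86 to -0.72 and passed the rule of 0.5 in all 4 libraries, which 2.05% of 7549 genes did in this direction and 2.48% in the other. Averaging over nuclei in place of summing UMIs ended this call, with a weakest difference of -0.27. The middle group was highest in 3 of 4 libraries, with 12.8 CPM in CD oncogene, 24.4 CPM in LPD control and 129 CPM in LPD oncogene, and it was at 7.10 CPM in CD control. In LPD oncogene it held 84 of the 134 nuclei with at least 3 UMIs, against 38 in the periportal and 12 in the pericentral group. Cholangiocyte markers were also lower in the pericentral group, at 11.1 to 19.6 CPM against 21.6 to 33.1 CPM in the periportal group. Stellate markers in LPD oncogene went from 127 CPM in the periportal group to 118 and then 39.9 CPM, and in the other libraries they were at 29.9 to 59.4 CPM in all 3 groups. The part of either was not tested.

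The other EGF family ligands were scarce in hepatocyte nuclei. Of 10 in the list, 2 passed the filter on low values. Tgfa, a ligand of EGFR, stood at 53.2, 48.4, 47.5 and 54.6 CPM, nearly level between libraries. Nrg4, a neuregulin that binds ERBB4, stood at 52.4, 84.9, 191 and 184 CPM. It was both higher in LPD in all 4 pairs (1.07 to 1.77 on the log2 scale) and periportal in all 4 libraries (-1.73 to -0.54). Of all genes tested, 12.2% were called higher in LPD and 2.05% periportal. Egf, Btc, Hbegf and Areg were at 0.0934 to 11.5 CPM and were not tested. Nrg1 and Nrg4 thus shared both calls but not the level of the middle group, since Nrg4 was highest in the periportal group in 4 of 4 libraries (269, 201 and 97.2 CPM from the periportal to the pericentral group in LPD oncogene).

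**Figure D2:**
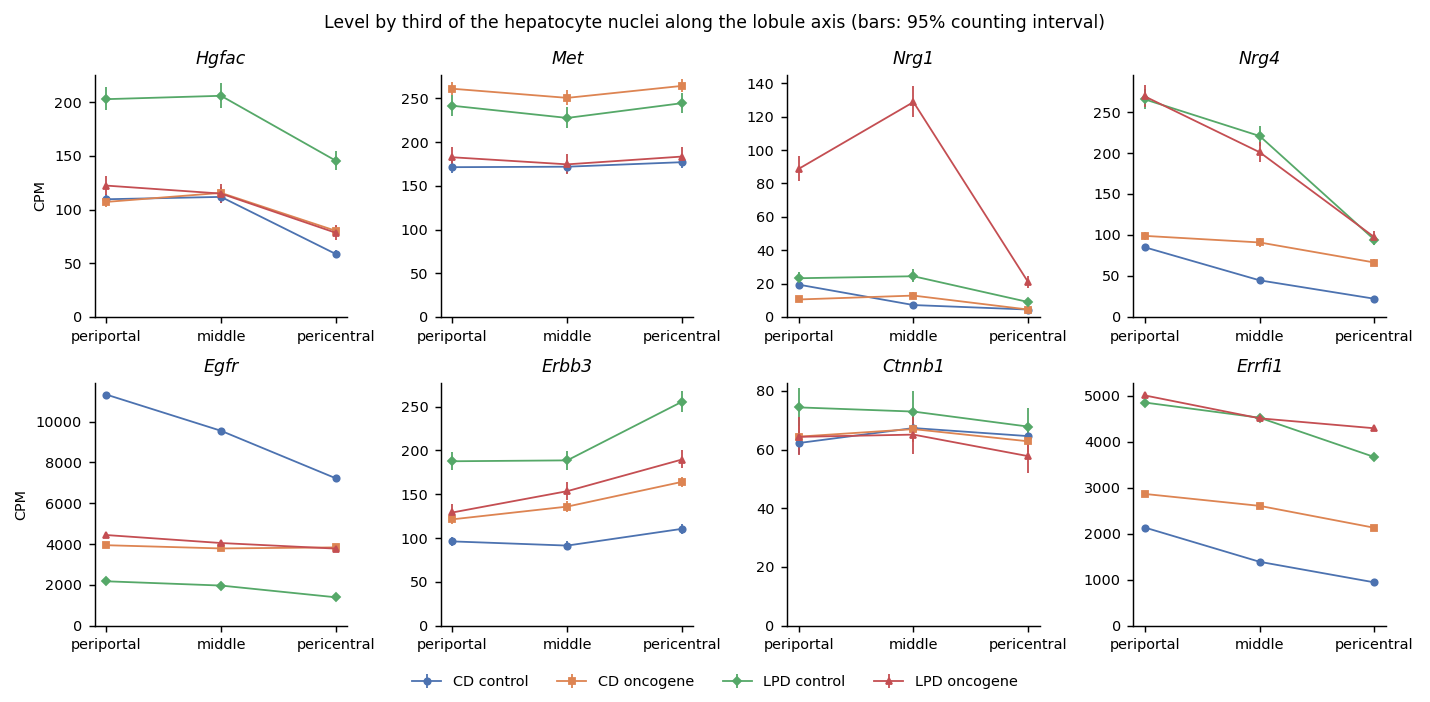
Level of 8 genes (6 of the receptor system, Nrg4 and Errfi1) in hepatocyte nuclei of the periportal, middle and pericentral group of each library, as CPM with exact Poisson 95% intervals. Nrg1, Nrg4 and Hgfac are lower in the pericentral than in the periportal group of each library, Erbb3 is higher there (255.5 against 187.6 CPM in LPD control), and Met and Ctnnb1 are nearly flat.

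Hgfac (ENSMUSG00000029102, chr5:35041509-35048461, plus strand) encodes the secreted protease that activates HGF, and was measured mainly in hepatocyte nuclei. Its hepatocyte level was 93.2 CPM in CD control, 99.6 CPM in CD oncogene, 183 CPM in LPD control and 104 CPM in LPD oncogene. LPD control stood apart from the other 3, and the difference between the labels was -0.79 on LPD and 0.09 on CD on the log2 scale, neither past 2-fold. The class-to-hepatocyte ratio of Hgfac ran from 0.154 to 0.797 and was above the hepatocyte marker range in 0 of 29 class-library pairs. Hgfac was lower in the pericentral group in 4 of 4 libraries, with log2 differences of -0.85, -0.40, -0.47 and -0.61, and in each library the step lay between the middle and the pericentral group (112 to 58.6 CPM in CD control, 206 to 145 CPM in LPD control). With 2 of the 4 differences short of 0.5 it did not meet the axis rule.

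Of 11 other genes for HGF activation and its inhibition, 7 passed the filter in hepatocyte nuclei and 0 were called between labels, between diets or along the lobule, where the backgrounds were 2.35% higher and 2.07% lower on CD, 1.56% higher and 1.02% lower on LPD, 12.2% higher and 3.99% lower between diets, and 2.48% pericentral and 2.05% periportal. Plg, the plasminogen precursor, stood at 760, 1050, 784 and 771 CPM, and Hpn, the membrane protease hepsin, at 247, 229, 313 and 306 CPM. Klkb1, encoding plasma prekallikrein, stood at 287, 342, 373 and 247 CPM. The inhibitor gene Spint2 was at 63.1, 51.1, 58.4 and 69.1 CPM. Mst1, which encodes the HGF-like ligand of the receptor RON, stood at 105, 133, 177 and 134 CPM, and Mst1r, which encodes RON itself, at 0.160 to 0.560 CPM.

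Met (ENSMUSG00000009376, chr6:17463800-17573980, plus strand) encodes the HGF receptor. In hepatocyte nuclei it stood at 173 CPM in CD control, 260 CPM in CD oncogene, 238 CPM in LPD control and 181 CPM in LPD oncogene. The oncogene label was thus higher on CD (0.57 on the log2 scale) and lower on LPD (-0.39), and neither passed 2-fold. The higher value on each diet belonged to a library without transgene UMIs, and the libraries with 100 and 6 transgene UMIs were the lower ones. Met was flat along the lobule, with log2 differences between the outer groups of 0.01 to 0.05 in the 4 libraries, each with an interval that included 0, and the sign of their mean was kept in 2 of 8 alternative settings.

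Outside hepatocytes Met was not above the hepatocyte marker range in any of 29 class-library pairs. Mesothelial and cholangiocyte nuclei came nearest. Mesothelial nuclei held 279, 274, 297 and 221 CPM, from 13 to 30 UMIs a library, and cholangiocyte nuclei 163, 223, 271 and 289 CPM. The class-to-hepatocyte ratio in the pairs with at least 30 nuclei was 1.23 to 1.61 in mesothelial and 0.859 to 1.14 in cholangiocyte nuclei. The lowest ratio of all, 0.273, was that of Kupffer nuclei in LPD oncogene. The share of hepatocyte nuclei with a Met UMI was 50.6%, 56.4%, 41.0% and 34.5% at full depth and 14.3%, 21.3%, 20.6% and 16.3% at 1000 UMIs per nucleus, where it followed the order of the levels.

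Among 5 partners of MET, 3 passed the filter. Of these, 1 was called periportal, Plxnb1, encoding a plexin (-1.02 to -0.61 on the log2 scale), where 2.05% of all genes were. Between labels or diets 0 of 3 were called. The backgrounds were 2.35% higher and 2.07% lower on CD, 1.56% and 1.02% on LPD, and 12.2% and 3.99% between diets.

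**Figure D3:**
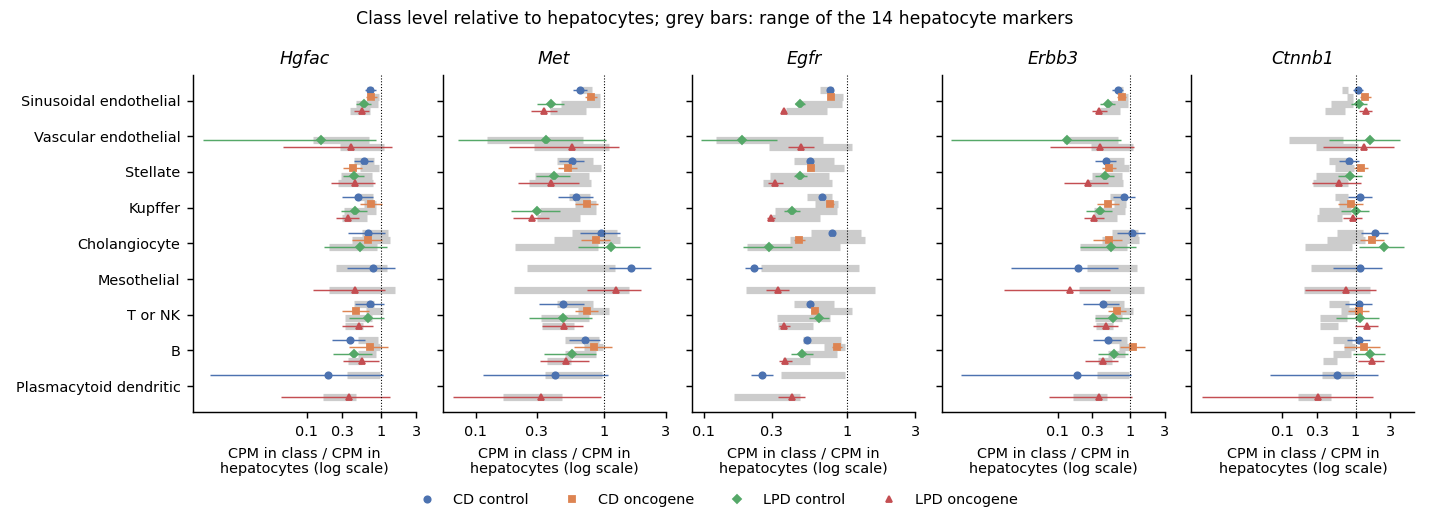
Ratio of the level in a class to that in hepatocyte nuclei of the same library for Hgfac, Met, Egfr, Erbb3 and Ctnnb1, on a log axis, with exact conditional 95% intervals. Grey bars span the 14 hepatocyte markers and the dotted line marks a ratio of 1. Hgfac, Met, Egfr and Erbb3 lie above the bars beyond their intervals in 0 of 29 pairs, and Ctnnb1 in 10 of 29.

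Egfr (ENSMUSG00000020122, chr11:16752203-16918158, plus strand) encodes the EGF receptor. Its levels in hepatocyte nuclei differed more between libraries than those of the other receptors. It stood at 9448 CPM in the library labelled CD control, 3862 CPM in CD oncogene, 1832 CPM in LPD control and 4075 CPM in LPD oncogene, which is 0.945%, 0.386%, 0.183% and 0.407% of all hepatocyte UMIs. The difference between the labels was -1.29 on CD and 1.15 on LPD on the log2 scale. Egfr was the only 1 of 5 genes tested that was at least 2-fold lower under the oncogene label on CD, and with Nrg1 it was 1 of 2 among 6 that were at least 2-fold higher on LPD. The background on CD was 2.35% higher and 2.07% lower, with 152 and 134 genes that became 201 and 104 under TMM scaling, and on LPD 1.56% higher and 1.02% lower. Both calls of Egfr held in 8 of 8 alternative settings, with values of -1.35 to -1.16 and of 1.12 to 1.15. The higher library on each diet was the 1 with transgene UMIs. An Egfr UMI was seen in 99.2%, 97.3%, 85.4% and 94.9% of hepatocyte nuclei at full depth and in 99.3%, 93.7%, 70.9% and 91.1% at 1000 UMIs per nucleus.

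Between diets Egfr showed no call. Of the 4 LPD over CD pairs, 3 gave negative log2 differences of -2.36, -1.07 and -1.21, and LPD oncogene over CD oncogene gave 0.08. In the lobule Egfr was lower in the pericentral than in the periportal group in 4 of 4 libraries. It went from 11327 to 7224 CPM in CD control, from 3943 to 3836 in CD oncogene, from 2175 to 1391 in LPD control and from 4442 to 3777 in LPD oncogene. The log2 differences of -0.65, -0.04, -0.64 and -0.23 did not meet the axis rule. Cps1, a periportal urea cycle gene that the ranking did not use, went from 4176 to 3892 CPM in CD oncogene, against 2784 to 770 CPM in CD control. Other genes differed in this. Hgfac was also less steep in CD oncogene than in CD control (-0.40 against -0.85), whereas Erbb3 was steeper (0.42 against 0.19). The part of the axis in the Egfr slopes was not tested.

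Outside hepatocytes Egfr kept to its hepatocyte level in part. In stellate nuclei it stood at 5234, 2165, 869 and 1293 CPM and in T or NK nuclei at 5205, 2308, 1173 and 1490 CPM. In both classes CD control was highest and LPD control lowest, as in hepatocyte nuclei, with CD oncogene above LPD oncogene, the reverse of their order there. The class-to-hepatocyte ratio ran from 0.185 to 0.855. It was above the hepatocyte marker range in 0 of 29 pairs and below it in 2, where 0.171% of levels over all genes were below, so Egfr beyond the level of hepatocyte RNA was not detectable outside hepatocytes at this depth.

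Egfros, an antisense gene on the minus strand inside Egfr (ENSMUSG00000085091, chr11:16815431-16830702), was looked at after its counts were seen. It stood at 292 CPM (12510 UMIs) in hepatocyte nuclei of CD control, 17.3 CPM in CD oncogene, 3.42 CPM in LPD control and 3.34 CPM in LPD oncogene. The log2 ratio of CD oncogene over CD control was -4.08 (interval -4.18 to -3.98), and the LPD libraries differed by -0.04 (-0.56 to 0.48). The ratio of Egfr to Egfros UMIs in hepatocyte nuclei was 32.4, 223, 535 and 1221. Egfros and Egfr were thus both highest in CD control, but Egfros was level between the LPD libraries, where Egfr differed by more than 2-fold. Whether counting used strand is not given in the sources used here, so reads of the pair cannot be told apart unless it did.

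**Figure D4:**
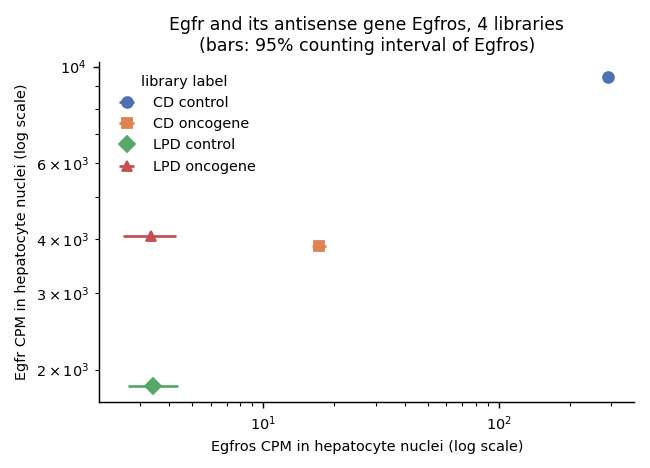
Egfr against Egfros in hepatocyte nuclei, as CPM on log axes, 1 point per library with the exact Poisson 95% interval of Egfros. CD control is highest on both axes (292 and 9448 CPM), and the LPD libraries share an Egfros level of 3.34 to 3.42 CPM at Egfr levels of 1832 and 4075 CPM.

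Erbb3 (ENSMUSG00000018166, chr10:128567523-128589652, minus strand) encodes the neuregulin receptor of the family. In hepatocyte nuclei it stood at 99.5 CPM in CD control, 141 CPM in CD oncogene, 212 CPM in LPD control and 159 CPM in LPD oncogene. As for Met, the oncogene label was higher on CD (0.48 on the log2 scale) and lower on LPD (-0.40), short of 2-fold. All 4 LPD over CD pairs were higher, by 1.05, 0.57, 0.65 and 0.17, and the last kept it from the diet rule. Erbb3 was the only receptor tested with a pericentral slope, by 0.19, 0.42, 0.44 and 0.54 on the log2 scale in the 4 libraries, each with an interval above 0, although 1 alone passed 0.5. Its class-to-hepatocyte ratio was 0.133 to 1.101 and in 0 of 29 pairs above the hepatocyte marker range. Mesothelial nuclei, where Nrg1 was called raised from few UMIs, held 18.6 and 23.3 CPM of Erbb3 in the libraries with at least 30 of them.

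Erbb4, the other neuregulin receptor, stood at 1117 and 1156 CPM in the CD libraries and at 497 and 483 CPM in the LPD libraries. It was called lower in LPD, with log2 differences of -1.25 to -1.16, where 3.99% of all genes tested were. This direction was opposite to that of Nrg1 and Nrg4, and Erbb4 differed by 0.05 and -0.04 between labels. In cholangiocyte nuclei Erbb4 was raised at least 2-fold in 3 of 3 libraries, with 1606 to 2571 CPM, where 4.26% of genes tested were raised.

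Erbb2 (ENSMUSG00000062312, chr11:98412470-98437716, plus strand) was nearly undetected in hepatocyte nuclei. They held 1, 3, 3 and 0 UMIs in the 4 libraries, and 3 counts in LPD oncogene would be 0.164 CPM. Summed over libraries its level there was 0.0534 CPM (interval 0.0215 to 0.110). It was higher in sinusoidal endothelial nuclei, with 4.23 CPM (2.76 to 6.19) from 26 UMIs, and in stellate nuclei, with 4.63 CPM (2.39 to 8.09) from 12 UMIs. Cholangiocyte nuclei held 12.2 CPM (4.90 to 25.1) from 7 UMIs and mesothelial nuclei 13.2 CPM (3.598 to 33.8) from 4. In Kupffer, T or NK and B nuclei 0 UMIs were counted, with upper interval limits of 1.78, 2.78 and 3.64 CPM. In sinusoidal nuclei the 8, 8, 3 and 7 UMIs put Erbb2 above the hepatocyte marker range in 4 of 4 libraries. Erbb2 did not pass the filter on low values, so no contrast was drawn, and Mien1, on the opposite strand, overlaps it.

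Ctnnb1 (ENSMUSG00000006932, chr9:120929216-120960507, plus strand) was the steadiest of the genes in hepatocyte nuclei. It stood at 64.5 CPM in CD control, 64.5 CPM in CD oncogene, 71.6 CPM in LPD control and 62.1 CPM in LPD oncogene. The labels differed by 0.00 on CD (interval -0.07 to 0.07 without pseudocount) and by -0.19 on LPD, the 4 diet pairs by -0.05 to 0.14 and the outer lobule groups by -0.14 to 0.05, each of the last with an interval that included 0. Unlike Met, Egfr and Erbb3 it passed the rule for a level above hepatocyte RNA in some other classes. Its ratio lay above the hepatocyte marker range in 10 of 29 pairs, where 22.3% of levels over all genes did. Of the 10 pairs, 3 were in sinusoidal endothelial nuclei (70.6, 88.0, 80.8 and 86.2 CPM), 2 in B nuclei and 2 in Kupffer nuclei. Passing did not require a level above that of hepatocytes, and in Kupffer nuclei the ratios were 0.870 to 1.17. The highest ratio, 2.43, was in cholangiocyte nuclei of LPD control, where 9 UMIs gave 174 CPM. Ulk4, on the opposite strand, overlaps Ctnnb1.

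Of 15 partners of β-catenin, 14 passed the filter over the 4 libraries, and 4 of the 14 were called along the lobule, where 2.48% of all genes were called pericentral and 2.05% periportal. Cdh1, encoding E-cadherin, and the transcription factor gene Tcf7l1 were called periportal, by -2.77 to -2.52 and -3.01 to -1.71 on the log2 scale. Cdh2, encoding N-cadherin, and the coactivator gene Bcl9l were called pericentral, by 0.67 to 1.01 and 0.56 to 0.95. Bcl9l was also called higher in LPD (55.9, 55.5, 93.7 and 108 CPM), as 1 of 14 against 12.2% of all genes, and 0 of 13 and 0 of 14 were called between labels on CD and LPD.

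**Figure D5:**
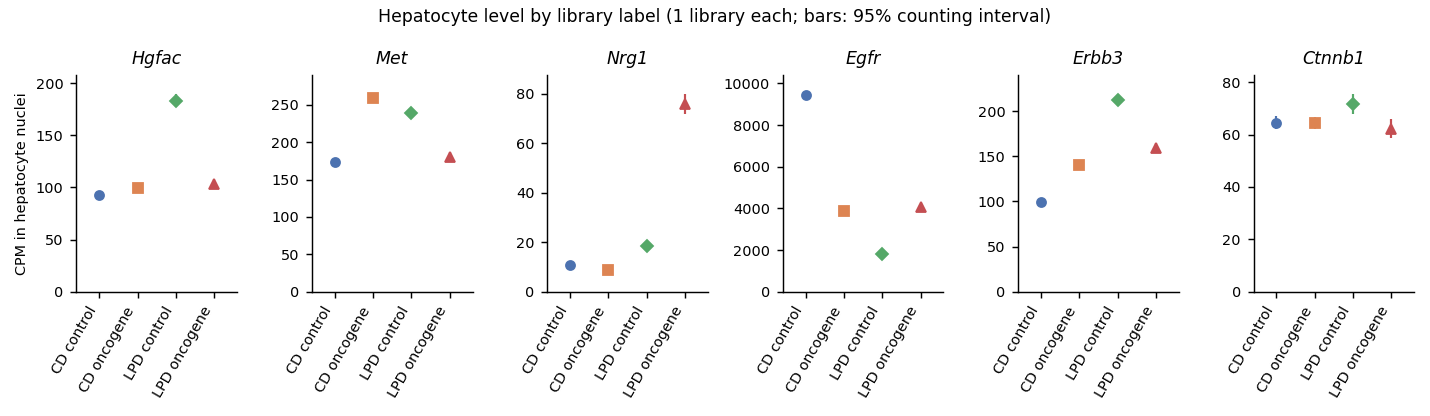
Levels of 6 genes in hepatocyte nuclei by library label, as CPM on linear axes from 0, 1 library each with exact Poisson 95% intervals. Ctnnb1 lies between 62.1 and 71.6 CPM in all 4 libraries, Nrg1 is highest in LPD oncogene and Egfr in CD control.

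Downstream of the receptors, 14 of 15 adaptor and kinase genes and 12 of 16 negative regulators passed the filter over the 4 libraries. Among the adaptors only Ptpn11, encoding the phosphatase SHP2, was called, as higher in LPD, with 31.4, 32.2, 52.8 and 51.6 CPM. Among the negative regulators Errfi1, an inhibitor of EGFR family kinases, stood at 1522, 2529, 4332 and 4592 CPM and was called higher in LPD (0.78 to 1.59 on the log2 scale). Cblb, a ubiquitin ligase for activated receptors, was called higher too, with 78.2, 115, 173 and 171 CPM. Dusp6, a phosphatase of ERK kinases, was called lower under the oncogene label on CD, with 27.3 CPM in CD control and 10.1 CPM in CD oncogene. It was 1 of 11 negative regulators tested on CD, where 2.07% of all genes were called lower and 2.35% higher. Its direction would turn if the CD labels, which the transgene counts go against, were exchanged. Of 7 shedding and trafficking genes, 5 passed the filter over the 4 libraries and 0 were called. Over all 8 lists of 81 related genes, 58 were tested over the 4 libraries, and 5 were called higher and 1 lower in LPD, against backgrounds of 12.2% and 3.99%.

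In the library labelled CD control 75 hepatocyte nuclei held a transgene UMI, 71 of them in the pericentral group. The ranking uses Glul, Cyp2e1, Cyp1a2 and Lgr5, which the paper reports as high in oncogene-expressing hepatocytes located mostly outside the pericentral zone. Position in the lobule and transgene expression therefore cannot be told apart in this ranking. Hgfac stood at 22.1 CPM in these and at 94.3 CPM in the 7556 without, a log2 ratio of -2.09 (interval -2.97 to -1.35), and at -1.45 (-2.33 to -0.69) against the negative nuclei of the pericentral group alone. Egfr stood at 5642 and 9505 CPM (-0.75, and -0.37 against pericentral nuclei) and Nrg1 at 0 and 10.99 CPM. The pericentral group of this library as a whole held only 4.42 CPM of Nrg1, so the 0 in 75 nuclei is not read as a loss. Endogenous Met, at 172 and 173 CPM, and Erbb3, at 101 and 99.5 CPM, had log2 intervals that included 0, of -0.30 to 0.26 and -0.36 to 0.38. Mouse Ctnnb1 stood at 50.5 and 64.7 CPM (-0.91 to 0.14). Where at least 2 transgene UMIs were required, Erbb3 was at 193 CPM in the positive nuclei (0.04 to 1.73). The positive nuclei were deeper, with a median of 6939 UMIs against 4577.

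The genes whose levels went most closely with each of the 8 over 33 class-library pairs were sought among 12325 genes by Pearson's r of log2(CPM + 5), which is a description over pairs that share libraries and depth. For Hgf these were Hs6st3 (0.926), Rerg and Efcc1, and for Nrg1 Fmo2 (0.832), Ncam1 and Ctnnal1. For Egfr they were Kng1 (0.908), Sc5d and Cyp7b1, for Hgfac Me1 (0.838), Gys2 and Acad11, and for Met Shroom3 (0.830), Eps8l2 and Naaladl2. For Erbb3 they were Gm40040 (0.873), Cyp3a13 and Creb3l3, and for Ctnnb1 Aplp2 (0.752), Arhgef3 and Stap2, the weakest of the sets. Those of Erbb2, 9530077C05Rik (0.859), Adcy2 and Mtus2, rest on its few UMIs.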

How the data were processed

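Single-nucleus RNA-seq libraries (10x Genomics 3′ chemistry) of mouse liver were analysed, 1 per group. The authors deposited raw UMI counts per gene and nucleus barcode. The file headers name Cell Ranger 9.0.1, and the submitters' processing notes name mm10 and Seurat 5. The features include 2 human transgenes. Whether introns or strand entered the counting is not given in the sources used here. Gene positions are from the GRCm38 annotation, the assembly of mm10.

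Nuclei with 200 to 7000 genes and at most 21% mitochondrial UMIs were kept. A nucleus entered a class with at least 3 markers of it and 2 more than of any other class. It entered hepatocyte with at least 6 of 14 hepatocyte markers, at least 0.5 of the median hepatocyte marker share and at most 1 marker of any other class. Of 109 other markers, 5 seen in 20% or more of the nuclei of a library were not used. Gate thresholds were set on these counts. No doublet caller was run, and leaving out the 8% of nuclei with the most UMIs was an alternative. Classes were compared where a library had at least 30 nuclei of them.

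UMIs were summed per class and library and divided by the mouse total (CPM). Each group is 1 library, so there was no test between labels. A model of diet over 2 against 2 libraries was not run, and no p-value was computed. Fold rules on log2(CPM + 5), which understates changes of low genes, were applied to all genes with at least 20 CPM in 1 set and 100 UMIs. They required 1 (2-fold) between labels and between classes, and 0.5 in all 4 pairs or libraries for diet and lobule. Detection shares were also given after each nucleus was thinned at random to 1000 UMIs, without shallower nuclei. Related genes were named where their list's rule called them or where they were abundant in their list, and the 3 genes most like each member by Pearson's r. The 8 genes, the lists and the rules were chosen with earlier results of these data known. The comparison of Hgf between libraries outside hepatocytes and that of Egfros were added after their levels were seen. Alternatives were TMM factors, totals without mitochondrial UMIs, stricter filters and gates, thinning, means over nuclei, a pseudocount of 1, no low-value filter and leaving out each library. The fold rule and the thinning were tested on simulated data. Python 3.11.15, numpy 2.4.6, scipy 1.17.1, pandas 2.3.3, matplotlib 3.10.9 and, for TMM factors, R 4.3.3 with edgeR 4.0.16 were used.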

Additional observations from a re-analysis of the deposited data

Results flagged for a closer look

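For 4 genes the ratio of oncogene over control label in hepatocyte nuclei had opposite signs on the diets. On the log2(CPM + 5) scale these were 0.0901 on CD and -0.79 on LPD for Hgfac, 0.57 and -0.39 for Met, -1.29 and 1.15 for Egfr, and 0.48 and -0.40 for Erbb3. The difference between the diets was not tested, since each group is 1 library, and the sign on CD rests on labels that the transgene counts go against. Taken the other way round, the CD ratios would be -0.0901, -0.57, 1.29 and -0.48 in the same order of genes, each of the same sign as on LPD. That agreement was fixed in advance, since the 4 genes were picked for opposite signs, and it says nothing about the labels.

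Levels outside the main comparisons were high in 2 cases. Nuclei that passed no gate held 268 CPM of Nrg1 in LPD oncogene, from 453 UMIs, against 21.7, 15.6 and 119 CPM in CD control, CD oncogene and LPD control, and 54 of these nuclei with at least 3 UMIs held 79.03% of them. Egfros stood at 292 CPM in hepatocyte nuclei of CD control, against 3.34 to 17.3 CPM in the other libraries.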

How the results depend on the processing

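No paired analysis was possible because each group is 1 library and all carry the replicate number 1. No count test was run, neither within a diet nor over the 2 libraries of each diet. Of 426 values under alternative settings, 58 of those that answer a comparison and 315 of the others stayed within their limits, while 4 and 49 moved, and 0 called values changed sign. Among values that were not called, signs did turn: the mean along the lobule of Met kept its sign in 2 of 8 settings, the diet mean of Met in 4 and of Ctnnb1 in 5, and the CD ratio of Ctnnb1 in 6. The calls of Egfr on CD and LPD and of Nrg1 on LPD were kept in 8 of 8 settings. The count of hepatocyte genes called between diets was 1173, and leaving out 1 library gave 1664 to 2111, with 2111 without CD control and 1820 without CD oncogene, where 2 pairs in place of 4 must pass. Without 1 library Hgfac was called in 1 of 4 cases, and Egfr and Erbb3 in 2 of 4 each. TMM factors changed the split of higher and lower calls from 152 and 134 to 201 and 104 on CD, and from 884 and 289 to 555 and 454 between diets. Genes raised in a class numbered 6271 over all classes, and 1712 under the stricter gate, which left stellate and vascular endothelial nuclei under 30 per library and under which Hgf was called in sinusoidal endothelial nuclei. Under that gate 11 of 80 levels of the 8 genes were above the hepatocyte marker range, against 43 of 232. Leaving out 1 library gave 369 to 405 genes along the lobule, 6988 to 8424 raised in a class and 31 to 34 levels above the range. Depth limits Erbb2 everywhere, and all genes in the classes with the fewest nuclei.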

Other observations

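Some of the related genes that were raised at least 2-fold in a class in every library with at least 30 nuclei are described here. Nrg2, another neuregulin, was raised in mesothelial nuclei (279 to 617 CPM) and in plasmacytoid dendritic nuclei (181 to 406 CPM). In each it was 1 of 3 other EGF family ligands tested, where 8.83% and 10.1% of all genes tested were raised. No other ligand of the list was raised in a class, but only 2 or 3 of the 10 passed the filter in any class. In stellate nuclei 2 of 15 adaptors were raised, Gab1 (642 to 907 CPM), which docks to MET, and Gab2 (363 to 575 CPM). So were 2 of 14 negative regulators tested, Spry1 and Spry2, where 8.84% of all genes tested were raised. Neither adaptor was particular to stellate nuclei. Gab1 was also raised in mesothelial nuclei (353 to 443 CPM). Gab2 was also raised in Kupffer (515 to 1461 CPM), sinusoidal endothelial, plasmacytoid dendritic and mesothelial nuclei. Kupffer nuclei had 3 of 12 negative regulators tested raised, Cbl, Ptpn1 and Ptprj (1653 to 4006 CPM), and the MET partner Cd44 (273 to 897 CPM), where 8.95% of all genes tested were raised. Cd44 was also raised in T or NK, B and plasmacytoid dendritic nuclei.

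Among partners of β-catenin, Lef1 was raised in T or NK nuclei (224 to 1367 CPM), Tcf7l1 in both endothelial classes (312 to 869 CPM) and Cdh1 in cholangiocyte nuclei (240 to 350 CPM). Ctnna1 and Bcl9 were raised in vascular endothelial, Tcf7l2 in Kupffer, Jup in stellate and Apc in plasmacytoid dendritic nuclei. In vascular endothelial nuclei 3 of 15 partners tested were raised (background 9.16%) and in cholangiocyte nuclei 1 of 14 (4.26%). In each other class named here 1 of 15 was raised. The backgrounds there were 7.39% (T or NK), 6.92% (sinusoidal endothelial), 8.95% (Kupffer), 8.84% (stellate) and 10.1% (plasmacytoid dendritic). Of the HGF activation list 0 of 7 genes tested were raised in any class, hepatocyte included, where hepatocyte RNA in the other nuclei left 0 of 8986 genes past 2-fold.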
